A study of Mus musculus with 2 samples.

Results

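Histone genes encode the proteins around which DNA is wrapped, and their mRNA was followed here in mouse primary chondrocytes, the cells that make cartilage matrix, on either side of a bout of cyclic tensile strain. Members were chosen by name alone, from the RefSeq transcript that each array probe carries: current gene symbols beginning with H1f, H2ac, H2bc, H2az, H2ax, H3c, H3f, H4c or H4f, or with the older Hist1h to Hist4h. Of 80 such genes in RefSeq (75 protein-coding and 5 pseudogenes), 54 had at least 1 probe, of 20660 genes with a probe in all, and these genes had 64 of the 55678 probes on the array. The rule itself used no measured value, though it was set with earlier results of these data known. Of the 64 probes, 56 (47 genes) stood well above background on each array and are called measured, 6 did so before loading only, and 2 did so on neither array.

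Total RNA was measured on 2 one-colour arrays, 1 per time point, which lay on the same slide. The array called before loading held RNA of chondrocytes from 6-day-old C57BL/6J mice, grown for 48 h in silicon chambers with a fibronectin coat and not yet stretched. The array called 24 h after loading held RNA of chondrocytes of the same age, strain and culture, taken 24 h after stretching of 10% elongation at 0.5 Hz for 30 min. The labels name no transgene or agent in either group and do not say how many animals or cultures went into a sample. The study's methods describe serum withdrawal ahead of stimuli for most experiments, and whether it was done here is not stated. An unstretched culture of the later time point was not analysed here, so the effect of strain and that of another 24 h in culture cannot be told apart. A single array per time point allows no statistical test, so all comparisons are descriptions without p-values. The number of arrays limits the precision, and the errors printed are those of the scanner software for both spots, which cover within-array error only. Fewer cells of a type and less RNA per cell cannot be told apart in bulk RNA.

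Histones H2A, H2B, H3 and H4 form the core of the nucleosome, and linker histone H1 binds the DNA between cores. Most copies of these genes are replication-dependent: they lie in clusters, lack introns, are transcribed mainly in S phase, and end in a stem-loop that takes the place of a poly(A) tail. Replacement histones, such as H3.3 and H2A.Z, come from genes outside the clusters and are mostly made throughout the cell cycle. Genes of H3.3 and H2A.Z have introns and poly(A) tails, which need not hold for every member of the class. The labelling kit primes on poly(A), so signal of replication-dependent genes comes from transcripts that were primed all the same, such as polyadenylated forms, and its part in the values was not tested. Probe sequences were not used here. Copies within a family are nearly identical in their coding parts, so a probe may also bind the mRNA of its neighbours, and the value of a single replication-dependent gene is uncertain in that sense.

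The start regions of members the results turn on are shown first, 1 or more per family, to let the sequences be set beside the values given further on. Each runs from 250 bases before to 50 after the start of the gene, read 5′ to 3′ on the strand of the gene, in RefSeq's assembly GRCm38.p6. Capitals mark 4 motifs, searched as exact letters on both strands: CCAAT, the TATA box TATAAA, the octamer ATTTGCAT, and GGTCCG, found in H4 start regions. They are the start regions of H2bc14 at chr13:21721794-21722093 (plus strand), H2ac11 at chr13:22042900-22043199 (minus strand), H3c4 at chr13:23575513-23575812 (plus strand), H4c12 at chr13:21750504-21750803 (minus strand), the linker gene H1f2 at chr13:23738557-23738856 (plus strand), the testis histone gene H2bc1 at chr13:23934107-23934406 (minus strand) and, as a replacement histone gene, H3f3a at chr1:180813556-180813855 (minus strand).
H2bc14: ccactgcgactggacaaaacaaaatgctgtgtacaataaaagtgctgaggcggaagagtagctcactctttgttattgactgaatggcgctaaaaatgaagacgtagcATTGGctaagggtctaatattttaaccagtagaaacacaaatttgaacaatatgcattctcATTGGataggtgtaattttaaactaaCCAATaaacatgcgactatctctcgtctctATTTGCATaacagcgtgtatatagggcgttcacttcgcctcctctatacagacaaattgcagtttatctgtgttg
H2ac11: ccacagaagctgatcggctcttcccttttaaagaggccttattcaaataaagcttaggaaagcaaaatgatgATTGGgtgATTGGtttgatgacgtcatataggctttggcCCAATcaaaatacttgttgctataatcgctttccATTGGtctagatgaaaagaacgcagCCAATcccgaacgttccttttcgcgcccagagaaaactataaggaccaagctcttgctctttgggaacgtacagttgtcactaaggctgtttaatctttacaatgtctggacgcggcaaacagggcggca
H3c4: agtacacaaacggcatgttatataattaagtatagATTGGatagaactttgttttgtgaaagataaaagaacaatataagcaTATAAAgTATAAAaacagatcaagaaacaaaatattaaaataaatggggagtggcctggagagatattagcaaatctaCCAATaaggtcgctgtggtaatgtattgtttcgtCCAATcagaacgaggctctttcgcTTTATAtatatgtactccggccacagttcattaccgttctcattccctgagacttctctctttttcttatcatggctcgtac
H4c12: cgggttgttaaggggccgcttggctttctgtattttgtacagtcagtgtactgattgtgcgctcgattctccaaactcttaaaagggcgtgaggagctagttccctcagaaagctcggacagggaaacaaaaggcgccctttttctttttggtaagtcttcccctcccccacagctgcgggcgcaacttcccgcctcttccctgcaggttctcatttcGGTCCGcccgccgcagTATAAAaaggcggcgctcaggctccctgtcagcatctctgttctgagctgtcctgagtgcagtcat
H1f2: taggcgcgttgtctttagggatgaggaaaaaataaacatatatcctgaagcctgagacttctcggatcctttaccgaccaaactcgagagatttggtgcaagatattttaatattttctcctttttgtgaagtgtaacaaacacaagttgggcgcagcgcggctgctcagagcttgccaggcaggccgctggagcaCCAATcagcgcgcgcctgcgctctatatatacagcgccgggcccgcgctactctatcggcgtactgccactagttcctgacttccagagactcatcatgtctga
H2bc1: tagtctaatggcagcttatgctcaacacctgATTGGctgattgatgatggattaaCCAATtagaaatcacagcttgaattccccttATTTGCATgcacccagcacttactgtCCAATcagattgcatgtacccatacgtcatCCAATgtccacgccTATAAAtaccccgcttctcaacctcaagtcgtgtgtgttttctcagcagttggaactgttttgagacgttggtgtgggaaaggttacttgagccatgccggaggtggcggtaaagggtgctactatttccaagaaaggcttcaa
H3f3a: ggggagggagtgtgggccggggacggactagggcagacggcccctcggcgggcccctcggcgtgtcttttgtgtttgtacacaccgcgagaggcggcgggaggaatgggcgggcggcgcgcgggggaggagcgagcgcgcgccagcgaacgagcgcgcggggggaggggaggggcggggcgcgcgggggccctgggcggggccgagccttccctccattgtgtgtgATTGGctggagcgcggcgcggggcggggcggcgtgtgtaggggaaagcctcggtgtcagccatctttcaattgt

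Among the 32817 start regions in the RefSeq table, CCAAT occurred in 37.4%, TATAAA in 13.6%, the octamer in 1.74% and GGTCCG in 8.25%. Of the 56 start regions of replication-dependent genes, 48 held CCAAT, 32 TATAAA, 11 the octamer and 12 GGTCCG. The motifs divided by family. The octamer lay in 6 of 14 H2B and 5 of 16 H2A regions and in 0 of 11 H4 regions, and GGTCCG lay in 10 of 11 H4 regions. CCAAT lay in every H1, H2A, H2B and H3 region listed and in 3 of the 11 of H4. Of the 6 replacement regions listed, 4 held CCAAT, 1 TATAAA, 1 the octamer and 2 GGTCCG, so neither of the last motifs was limited to replication-dependent genes. A match is a description of the letters and not a site shown to be bound.

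Replication-dependent histone mRNAs were lower 24 h after loading in every core family, while replacement histones lay between them and the bulk of the array. Values are log2 ratios, 24 h after over before loading, of intensities scaled to each array's 75th percentile. Of the 39 measured replication-dependent probes (35 genes), 36 lay below 0, against 55.2% of the 30646 measured probes of the array. Their median was -0.84, a level before loading 1.79 times that at 24 h, against a median of -0.03 over all probes, and their range was -2.54 to 0.50. Of these 39 probes, 12 were more than 2-fold lower and 0 more than 2-fold higher, where 1.6% of all measured probes were more than 2-fold lower and 0.669% more than 2-fold higher. Past 1.5-fold, 32 of 39 were lower, against 5.82% of all probes. The drop passed 2 within-array errors for 33 of 39, against 9.11% of all probes, and a rise did for 1 of 39, against 6.62%. Only 2.40% of all measured probes had a log2 ratio below the median of this class.

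**Figure D1:**
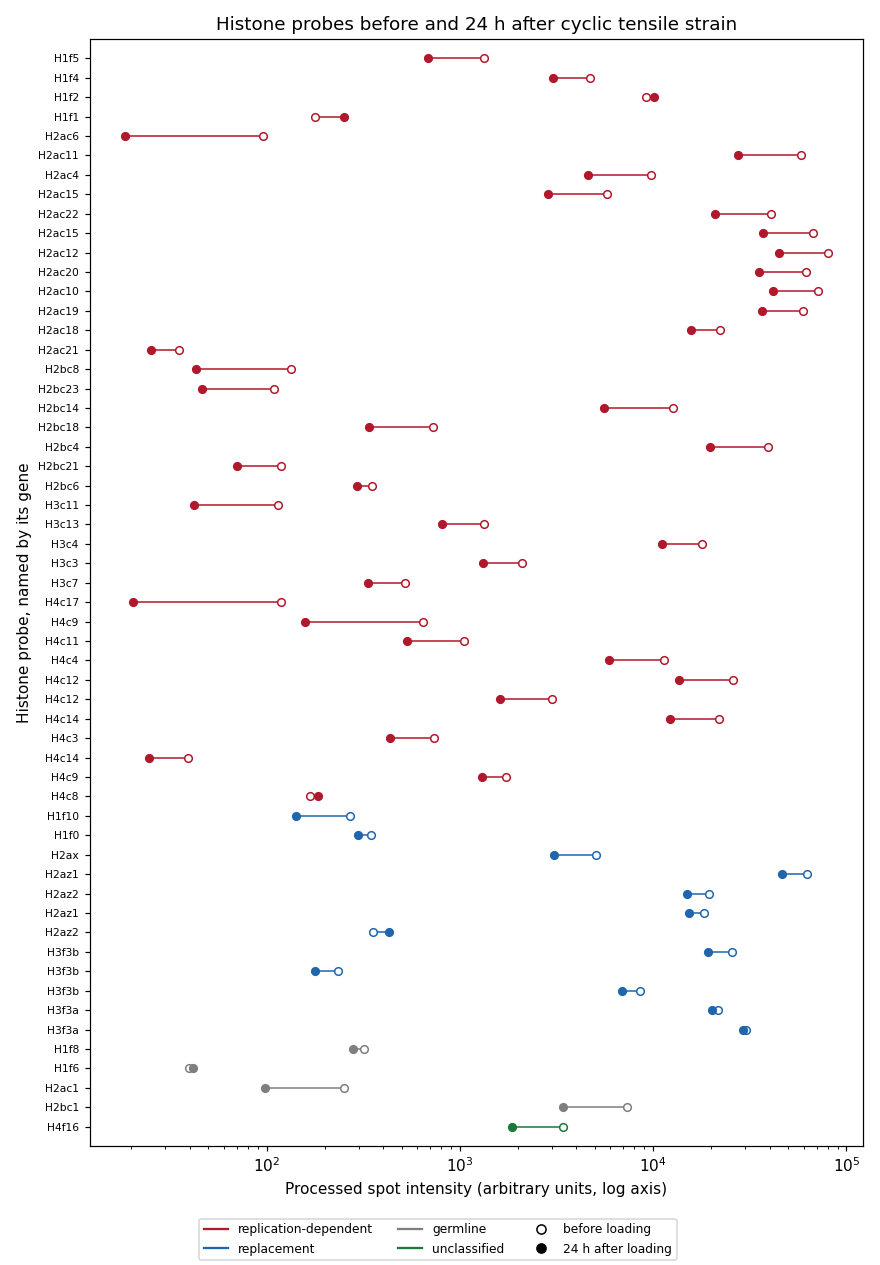
Processed intensity (arbitrary units, log axis) of the 56 measured histone probes before loading (open circles) and 24 h after (filled circles), 1 line per probe and coloured by class. The filled circle lies to the left, at the lower intensity, on all but a few lines, and replication-dependent probes span the longest distances.

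The lower values were not limited to dim probes. Of the core replication-dependent probes with a mean above the 75th percentile of the array, all 23 lay below 0, from -1.19 to -0.42 with a median of -0.85, 21 were past 1.5-fold lower and 6 past 2-fold. Of the 13909 probes of the array with a mean that high, 55.1% lay below 0, 3.21% were past 1.5-fold lower and 0.927% past 2-fold. Below that percentile the 13 replication-dependent probes spread more widely, from -2.54 to 0.50. The within-array error of replication-dependent probes was near 0.20 for bright ones and reached 0.37 for dim ones. It was nearly the same for all bright ones. For these, passing 2 errors amounts to passing a nearly fixed log2 ratio. None of the measured replication-dependent probes lay in an area of the slide where at least 3 neighbouring spots had changed more than 2-fold the same way.

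**Figure D2:**
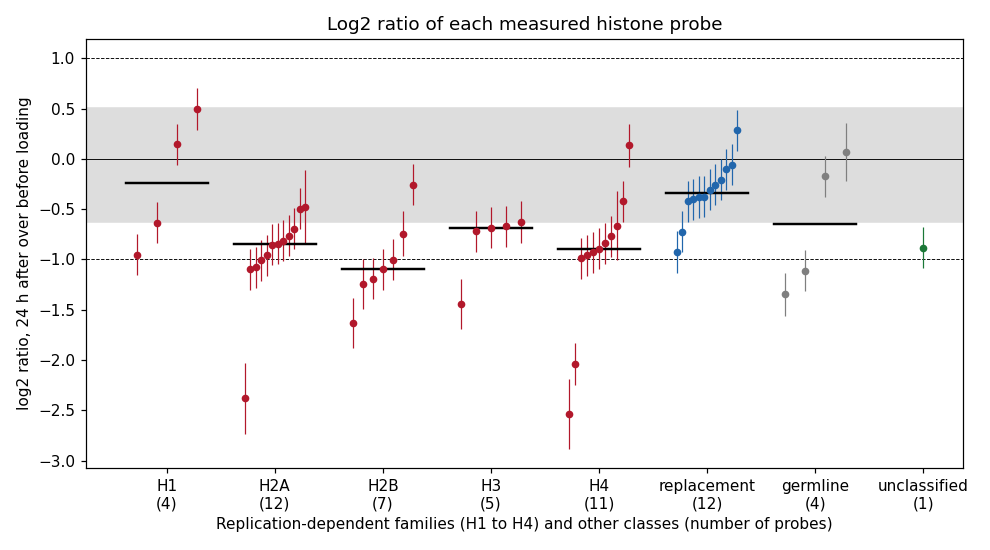
Log2 ratio (24 h after over before loading) of each measured histone probe with its within-array error, by replication-dependent family and by class, with medians as bars. The grey band spans percentiles 5 to 95 of all measured probes and the dashed lines mark 2-fold; medians ran from -1.10 for H2B to -0.24 for H1 among the families.

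Among linker histones, 2 of the 4 measured replication-dependent probes lay below 0 and 2 above. H1 compacts the fibre between nucleosomes, and its replication-dependent subtypes come from the genes H1f1 to H1f5. H1f5 had a log2 ratio of -0.95, with an intensity of 1331 on the first array and 687 on the second, and H1f4 from 4688 to 3020, or -0.63. Both were lower by more than 2 within-array errors. H1f2, the H1 probe with the highest signal, went from 9182 to 10152, a log2 ratio of 0.15, less than its within-array error of 0.20. H1f1 went from 178 to 252, a log2 ratio of 0.50 with an error of 0.21, and was the one replication-dependent probe higher by more than 2 errors. The median over the 4 measured H1 probes was -0.24. H1f1, H1f4 and H1f5 were named after their values were seen.

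H2A, the core histone whose family has the most variants, had 12 measured replication-dependent probes, and all 12 were below 0. Their median was -0.85, 4 were more than 2-fold lower and 10 more than 1.5-fold lower. H2ac12, the H2A probe with the highest signal, went from 80578 to 44871, a log2 ratio of -0.84. H2ac11 (listed under transcript NM_178186) went from 58541 to 27339, or -1.10, and H2ac4 from 9708 to 4593, or -1.08. Both had a within-array error of 0.20, as nearly all bright histone probes did, and both were just past 2-fold. H2ac15 had a probe at -1.01, from 5766 to 2867, and a brighter one at -0.85, from 67024 to 37102, so its call depended on the probe. The lowest H2A ratio was that of H2ac6, -2.38 with an error of 0.36, which went from 96.3 to 18.5 and at 24 h lay close to the lowest intensity well above background on that array (17.8). With normexp, a model-based background correction tried as an alternative with an offset of 50 added to each intensity, its ratio was -1.05. The other H2A probes with a mean above the 75th percentile, of H2ac22, H2ac20, H2ac10, H2ac19 and H2ac18, had ratios of -0.96, -0.81, -0.76, -0.69 and -0.50. Whether probes of different H2A genes measured 1 shared pool of mRNA was not tested.

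H2B, the partner of H2A in the dimer that is added to the nucleosome last, had the lowest family median, -1.10 over 7 measured probes. All 7 lay below 0 and 5 were more than 2-fold lower. H2bc14 (transcript NM_178200), whose start region above holds the octamer, went from 12680 to 5552, a log2 ratio of -1.19 with an error of 0.20. H2bc18, of the Hist2 cluster, went from 723 to 337, or -1.10. H2bc8 and H2bc23 were dim, at 134 and 110 before loading and 43.1 and 46.5 at 24 h, with ratios of -1.63 and -1.24 and errors of 0.25. The calls of dim probes changed with the background correction and its added offset. With normexp, H2bc8 had -0.96, H2bc23 -0.60 and H2bc18 -0.96, all within 2-fold, and H2bc14 had -1.11. H2bc4, the H2B probe with the highest signal, went from 39236 to 19598 and was just past 2-fold lower, with a log2 ratio of -1.001. H4c11 fell just short of 2-fold at -0.988, from 1056 to 532, and its drop and that of H2bc4 differed by much less than their errors. H2bc6 had the smallest H2B change, from 352 to 294, a log2 ratio of -0.26 with an error of 0.21.

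H3, the core histone whose tail carries many of the best known chromatin marks, had 5 measured probes of replication-dependent genes, all below 0, with a median of -0.69. H3c4, the H3 probe with the highest signal, went from 17972 to 11172, a log2 ratio of -0.69 with an error of 0.20. H3c13, H3c3 and H3c7 had similar ratios of -0.72, -0.67 and -0.63. H3c11 was dim and went from 115 to 42.3, a log2 ratio of -1.44 with an error of 0.25. With normexp its ratio was -0.83, within 2-fold, and those of the other H3 probes were -0.70 to -0.53.

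H4, which pairs with H3 and is encoded by many genes for the same protein, had 11 measured probes with a median of -0.89, of which 10 lay below 0 and 2 were more than 2-fold lower. H4c12, the H4 probe with the highest signal, went from 25856 to 13595, a log2 ratio of -0.93, and a dimmer probe of the gene had -0.89. H4c4 went from 11430 to 5887, or -0.96. H4c17 went from 118 to 20.4, near the floor of measurement, a log2 ratio of -2.54 with an error of 0.35, which was the lowest of the measured histone probes. With normexp it was -1.23, above the lower H4c9 probe at -1.79. H4c8 was the one measured replication-dependent core probe above 0, from 168 to 185, a log2 ratio of 0.13 with an error of 0.21. Probes of H4c9 (transcript NM_175656) disagreed. One went from 648 to 157, a log2 ratio of -2.04, and the brighter one from 1737 to 1296, or -0.42, each with an error of 0.21 or less. The gap of 1.62 was the widest among the 8 histone genes with several measured probes, whose median gap was 0.16, against 0.19 over 3635 such genes of the array, where the 90th percentile was 0.61.

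Replacement histones were also lower, but by less. Their 12 probes (7 genes) had a median log2 ratio of -0.34, from -0.93 to 0.28. Of these, 11 lay below 0, against 55.2% of all measured probes. Past 1.5-fold lower were 2, against 5.82%, and 3 were lower by more than 2 within-array errors, against 9.11%. A count of 0 passed 2-fold, where 1.6% of all measured probes were that much lower and 0.669% higher. With 12 probes, that count does not set the class apart from the array. The replication-dependent median lay 0.50 below the replacement median on the log2 scale, a value of -0.50 that stayed between -0.57 and -0.44 under every alternative run. The classes overlapped: 16 of the 39 replication-dependent probes lay below every replacement probe, 22 within their range and 1 above all of them. Of the replication-dependent probes, 35 lay below the replacement median, and 1 of the 12 replacement probes lay below the replication-dependent median. The share of all measured probes below the replacement median was 14.8%.

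**Figure D3:**
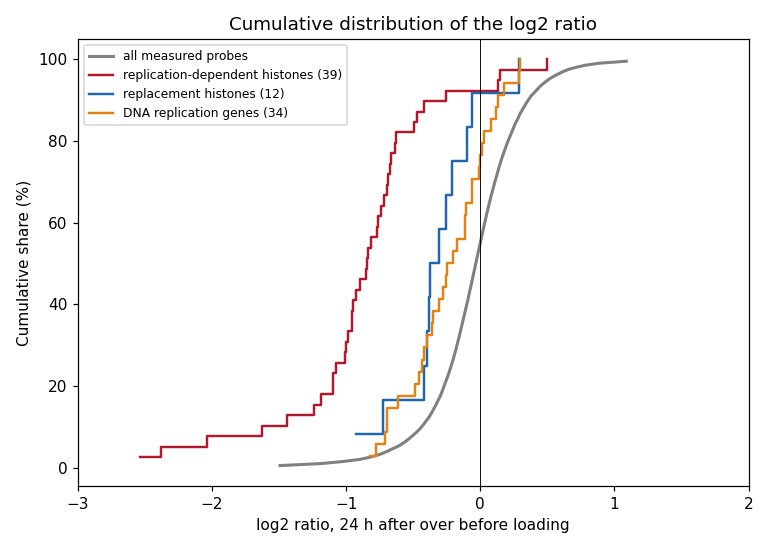
Cumulative share (%) of probes or genes at or below each log2 ratio, for all measured probes, replication-dependent and replacement histone probes, and DNA replication genes, with the number of each in parentheses. Medians are lowest for replication-dependent histones (-0.84), followed by replacement histones (-0.34), DNA replication genes (-0.23) and all probes (-0.03). Towards their ends the curves cross.

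Within the replacement class, H3f3a and H3f3b encode the same protein, H3.3, which supplies H3 outside S phase. The probes of H3f3a were nearly level, from 30265 to 29038 and from 21528 to 20043, with log2 ratios of -0.06 and -0.10 that are smaller than their errors of 0.20. The first of them turned to a sign above 0 under 5 of the 6 other scalings or corrections, and its spot had 3 neighbours that were more than 2-fold lower. The 3 probes of H3f3b had ratios of -0.40, -0.38 and -0.31, the brightest from 25514 to 19306. H2A.Z, a variant placed around transcription start sites, is encoded by H2az1 and H2az2. The probes of H2az1 went from 62247 to 46457 and from 18395 to 15405, ratios of -0.42 and -0.26. The brighter probe of H2az2 went from 19513 to 15048, or -0.37, and a dim one from 355 to 432, or 0.28, so its probes differed in direction.
H2ax, which encodes the variant that is phosphorylated at DNA breaks, and H1f10, a linker histone, were the replacement members farthest below 0. H2ax went from 5063 to 3061, a log2 ratio of -0.73 with an error of 0.20, and H1f10 from 270 to 142, or -0.93 with an error of 0.21. Both lay among the replication-dependent values and were the 2 probes past 1.5-fold. The H2ax gene is known to give a stem-loop transcript besides its polyadenylated one. H1f0, the linker histone of non-dividing cells, went from 345 to 299, or -0.21, about as large as its error of 0.21.

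Germline members encode histones known from testis and oocytes. H2bc1, a testis-specific H2B, went from 7363 to 3402, a log2 ratio of -1.11 with an error of 0.20, and H2ac1, a testis-specific H2A, from 251 to 98.7, or -1.35 with an error of 0.21 (-0.98 with normexp). H2bc1 thus gave a clear signal in cells in which the germ cell markers Ddx4, Dazl and Prm1 were not measured and Prm2 and Tnp1 were dim, at 124 and 39.4 before loading. Whether its probe also binds H2B mRNA of other genes was not tested. The spot of H2ac1 had 5 neighbours that were more than 2-fold lower. H1f8, the oocyte linker histone, went from 318 to 282, or -0.17, and H1f6, of testis, from 39.9 to 41.8, or 0.07, both smaller than their errors. H1f7 stood near background on both arrays. H4f16, an H4 gene outside the main clusters that was left unclassified, had 1 probe that went from 3435 to 1861, or -0.88 with an error of 0.20, beside 3 neighbours more than 2-fold lower, and 1 probe not well above background. These are 2 of 4 measured germline probes past 2-fold, and with the 12 replication-dependent ones make 14 of 56 histone probes.

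A further 6 replication-dependent probes dropped from well above background to below that limit by 24 h, a step that 5.7% of the 32498 probes above background before loading took. They have only nominal bounds, set against the higher of their own value at 24 h and the lowest intensity well above background on that array (17.8). That intensity is no fixed limit of detection: H2ac8 lay above it at 18.85 without being well above background. The bounds also leave out the within-array errors of these probes, which ran from 0.40 for H2bc22 to 0.79 for H1f3. How the bounds change with background correction is not given. H3c8, an H3 gene, went from 152 to 12.0, with a nominal bound of 8.53-fold lower. The nominal bound was 6.48-fold for H2bc22, 5.39-fold for H2ac8 (its own ratio), 2.68-fold for H3c1, 1.59-fold for H1f3 and 1.42-fold for H2bc3. H1f3, H2bc3 and H3c1 were already near background before loading, at 28.2, 25.3 and 47.8. Only the 2 histone probes not well above background before loading could have made the opposite step, and neither did, so its absence says little.

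By location, the 30 measured replication-dependent probes of the Hist1 cluster had a median of -0.94, with 11 more than 2-fold lower, and the 9 of Hist2 a median of -0.72, with 1 more than 2-fold lower. Hist1 lies on chromosome 13, where gaps of more than 100000 bases divide the histone genes into 4 runs. The run from H2bc13 to H2ac24 had 11 measured probes, all below 0, with a median of -0.99. The run from H2ac12 to H2bc11 had 4, all below 0, with a median of -0.97. The long run from H4c8 to H1f1 had 15 replication-dependent probes, with a median of -0.69, and 12 of these 15 were below 0. Every measured histone probe of chromosome 13 above 0 lay in that run: H4c8, H1f2, H1f1 and the testis gene H1f6. The last run holds the head-to-head testis genes H2bc1 and H2ac1 alone, with -1.11 and -1.35. Of the 9 pairs of histone genes that start back to back, this was the one with both genes measured, and its starts lie 281 bases apart.

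**Figure D4:**
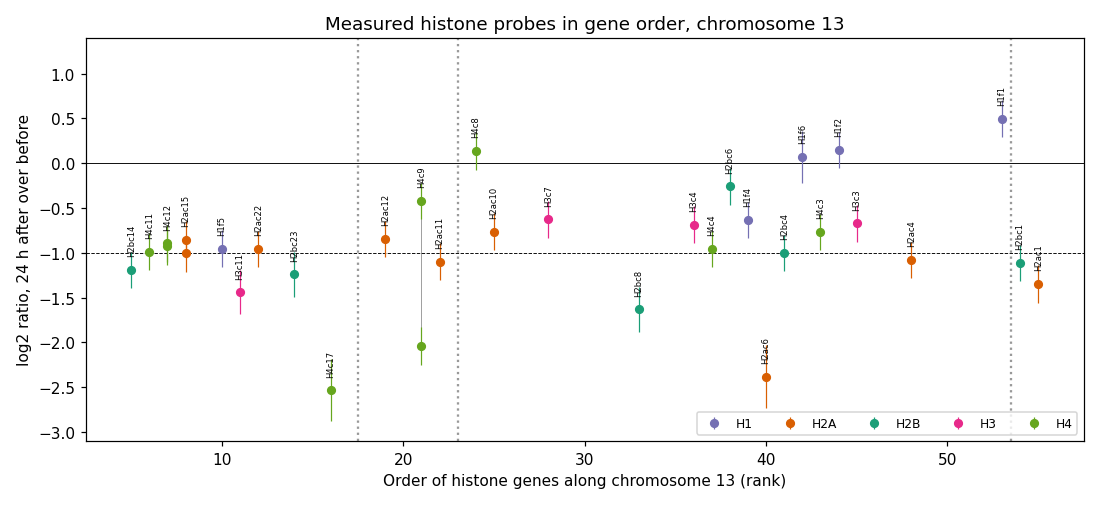
Log2 ratio (24 h after over before loading) of measured histone probes in the order of their genes along chromosome 13, coloured by family, with within-array errors; dotted lines part the 4 runs and the dashed line marks 2-fold lower. Points above 0 lie in the run from H4c8 to H1f1, and grey lines join probes of 1 gene.

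The motifs of the start regions were set beside the ratio of the brightest probe of each gene, for 31 measured replication-dependent genes with a listed region, as a description. The 8 genes with the octamer (H2A and H2B genes) had a median of -1.09, from -2.38 to -0.26, and the 23 without it -0.76, from -2.54 to 0.50. H2bc6, at -0.26, has several listed start regions and was counted because 1 of them holds the octamer. Medians were -0.93 with TATAAA (19 genes) and -0.74 without it (12), -0.94 with GGTCCG (8) and -0.81 without it (23), and -0.83 with CCAAT (26) and -0.93 without it (5). The spread within each set was wider than the distances between medians. H1f2 and H1f1, both above 0, hold CCAAT in their regions, as do most genes that were lower.

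Genes that act on histones were read from lists of named genes, with the brightest probe of each. Over all 14222 measured genes, 1.83% were more than 2-fold lower, 5.84% more than 1.5-fold lower and 0.668% more than 2-fold higher, with a median of -0.01, and 52.4% lay below 0. Factors of histone gene transcription and 3′ end processing had a median of -0.02 over 14 measured genes of 15, and 1 of 14 was more than 2-fold lower. Slbp, which binds the stem-loop of histone mRNA, went from 402 to 451, a log2 ratio of 0.17, and Casp8ap2 (FLASH), a factor of 3′ cleavage, from 246 to 289, or 0.23. Lsm11, of the U7 particle, went from 122 to 77.1, or -0.66, and Hinfp, which binds H4 start regions, from 580 to 446, or -0.38. A dim probe of Hinfp went the other way, from 22.8 to 35.1, or 0.63 with an error of 0.35. The spot of Lsm11 had 4 neighbours that were more than 2-fold lower. Zfp473, also of 3′ processing, was dim and went from 73.3 to 30.7, or -1.26. Npat, the S-phase activator of histone genes, was dim at 26.8 before loading and no longer well above background at 24 h, at 10.6. Its ratio of -1.34, with an error of 0.72, was not counted. The measured processing factors thus had ratios on both sides of 0.
Chaperones that hand new histones to replicating DNA had a median of -0.15 over 14 genes, with 12 below 0 and 1 more than 2-fold lower. That gene was Asf1b, a carrier of H3-H4 dimers in dividing cells, which went from 1000 to 428, a log2 ratio of -1.22 with an error of 0.20. Its paralogue Asf1a went from 104 to 127, or 0.29. Chaf1a and Chaf1b, of the CAF-1 complex, had -0.25 and -0.06, and Nasp, a store of soluble H3, had -0.32. A dimmer probe of Nasp had 0.16. Chaperones listed here as replication-independent had a median of -0.04 over 14 measured genes of 15, with 0 past 2-fold. They ran from -0.37 for Supt16 to 0.45 for Atrx. Dimmer probes of Atrx had -0.04 and 0.02, and probes of Anp32e had 0.07 (the one used) and -0.76.
DNA replication genes, made in the same phase as replication-dependent histones, had a median of -0.23 over 34 measured genes of 35. Of these, 26 lay below 0, 6 were more than 1.5-fold lower and 0 passed 2-fold. The lowest was Mcm5, a subunit of the replicative helicase, at -0.82. Rrm1 and Rrm2, of ribonucleotide reductase, had -0.71 and -0.61, and Pcna, the sliding clamp, -0.25. The list median lay closer to that of replacement histones than to that of replication-dependent ones. Among histone variants outside the naming rule, Cenpa, the H3 of centromeres, went from 2461 to 368, a log2 ratio of -2.74. H2aj went from 69587 to 44782, or -0.64, whereas the macroH2A genes Macroh2a1 and Macroh2a2 had 0.10 and 0.16. A dimmer probe of H2aj had -0.14. H2aw, which matched by an older symbol only, had -0.51.

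**Figure D5:**
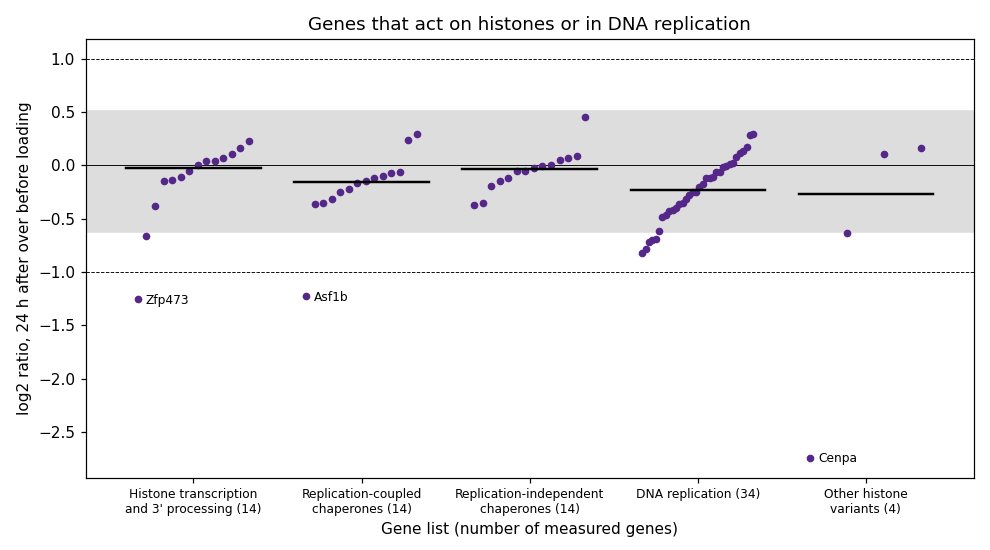
Log2 ratio (24 h after over before loading) of the brightest probe of each measured gene in 5 lists, with list medians as bars, the grey band for percentiles 5 to 95 of all measured probes and dashed lines at 2-fold. Genes past 2-fold are named: Zfp473, Asf1b and Cenpa, all lower.

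The cell type label was checked with markers. All 10 chondrocyte markers were measured on both arrays, with a median log2 ratio of 0.14 and a summed intensity of 1232960 before loading and 1226500 at 24 h. Col2a1, the brightest, went from 499543 to 474876. Single markers moved both ways, with 4 below 0 and 6 above. Col11a1 was lowest at -0.82, from 107657 to 60799, beside 3 neighbours more than 2-fold lower, and Matn1 was highest at 0.56. Of other cell types, 4 of 4 macrophage markers with a probe were measured (summed intensity 4090 and 3899), 2 of 4 endothelial (12894 and 12520), 1 of 5 erythroid (83.3 and 89.7), 4 of 5 skeletal muscle (1343 and 1358) and 2 of 5 male germ cell markers (196 and 165). Most of the endothelial sum came from the brightest probe of Kdr (12774 and 12375), whose other probe was not well above background. Most of the macrophage sum came from the brightest probe of Csf1r (3646 and 3288). Cdh5, Tek, Hbb-bs, Ckm, Ddx4 and Dazl were among the markers not measured. Past 2-fold were Myh8 (1.15), a myosin of immature muscle, and the dim Ptprc (1.14), a surface protein of blood cells, both higher. The spot of Ptprc had 6 neighbours that were more than 2-fold higher. The part of these markers in the histone values was not tested. The share of the 59305 spots that stood well above background was 59.1% on the first array and 57.7% on the second, and 0 spots were saturated.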

How the data were processed

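The deposited values are spot intensities that the authors processed with Agilent Feature Extraction 10.10.1.1 (per the submitters' processing notes), background-subtracted and without normalization between arrays. A deposited value table holds the same intensities rounded, with a largest difference of 0.497%. Here, control and flagged spots were left out (0 histone probes), spots of a probe were averaged, and log2 intensity was taken minus each array's own 75th percentile (466 on both). Probes were named through RefSeq transcripts (GRCm38 table, 27235 matched). Members, classes, gene lists and motifs were chosen with earlier results of these data known. Named are all replacement, germline and unclassified members, replication-dependent members past 2-fold, the highest-signal one of each family, genes whose probes differ by more than 1 (log2), and list members past 2-fold. Others were named after their values were seen. Neighbours are spots within 100 µm, well above background on at least 1 array. Alternatives were other scalings, background corrections, filters and units. The median spot signal stood in for the mean signal that was foreseen for normexp, since the files used hold the median. Tools were Python 3.11.15, numpy 2.4.6, pandas 2.3.3, matplotlib 3.10.9, R 4.3.3 and limma 3.58.1 (normexp, offset 50, and loess), tested on simulated data.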

Additional observations from a re-analysis of the deposited data

How the results depend on the processing

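The medians of replication-dependent (-0.89 to -0.74) and replacement probes (-0.40 to -0.24) and their difference (-0.57 to -0.44) kept their sign under every alternative run for them, and the count of histone probes more than 2-fold higher was 0 throughout. The count more than 2-fold lower, 14, was 7 with normexp, 7 among probes with a mean above the 75th percentile, 7 among those below it (an alternative chosen after seeing the data), and 4 when 2-fold had to be passed by more than 2 within-array errors. Fewer probes or a stricter call give the last 3 by construction. Normexp adds an offset of 50 to each intensity, which draws the ratios of dim probes towards 0. How much of its lower count comes from the offset was not tested. Other settings gave 10 (median scaling) to 19 (no filter on dim probes). Over all measured probes, the share more than 2-fold lower was 1.6% in the main setting, 0.666% with normexp and 1.24% with median scaling. It was 0.927% among probes above the 75th percentile and 2.15% among those below it. No such share is given for the stricter call or for the unfiltered setting. H2bc4 was not past 2-fold under any of the 6 other scalings, corrections or sources. Scaling moved the median of all probes by at most 0.10. One H3f3a probe was the one histone probe whose ratio changed sign. Counting germline members, or genes with an older symbol, as replication-dependent was added after seeing the data and gave medians of -0.85 and -0.84. No paired analysis was possible because each time point had 1 array, which also left no replicate to leave out. Dim probes limit H4c17, H2ac6, H2bc8, H2bc23 and H3c11.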
